A study of Mus musculus with 15 samples.

Results

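The 10 genes that carry the MHC class I antigen presentation pathway were examined in mouse LSK cells. They were chosen by name, for their role, and are H2-K1, H2-D1, H2-Q4, H2-T23, B2m, Tap1, Tap2, Tapbp, Psmb8 and Psmb9. All 10 were among the 45232 gene IDs of the count table, and all 10 passed the filter on low counts that 17834 genes passed.

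MHC class I molecules show peptides from inside a cell to CD8 T cells and NK cells, and nearly all nucleated cells carry them. Proteasomes cut proteins into peptides, and in the immunoproteasome the subunits Psmb8 (LMP7) and Psmb9 (LMP2) replace their constitutive counterparts. The peptide transporter, a heterodimer of Tap1 and Tap2, carries the peptides into the endoplasmic reticulum, where tapasin (Tapbp) helps to load them onto a heavy chain paired with beta-2 microglobulin (B2m). H2-K1 and H2-D1 encode the classical heavy chains of the C57BL/6 mouse, H2-T23 encodes the nonclassical Qa-1 molecule that presents to NK receptors, and H2-Q4 encodes a further Qa-region heavy chain. Interferon-gamma, which signals through Jak1 and Jak2, is a classical inducer of the pathway, and Nlrc5 is its main transcriptional coactivator.

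The cells were donor-derived CD45.2+ LSK cells (lineage negative, Sca-1 positive, c-Kit positive; the bone marrow fraction that holds stem cells and multipotent progenitors) of the C57BL/6 strain. RNA was sequenced from 15 libraries in 5 groups of 3. The mutant cells carried Idh2 R140Q and Jak2 V617F together, both conditional alleles switched on by Mx1-Cre, a recombinase whose promoter answers to interferon and which is active in many blood and some nonblood cells. They had been transplanted into irradiated recipients, which received vehicle, AG221 (an inhibitor of mutant IDH2, 40 mg per kg by the labels), ruxolitinib (a JAK1/2 inhibitor, 60 mg per kg) or combined treatment by gavage for 21 to 28 days. All 4 treatment groups thus share both mutations, and the labels distinguish them by drug. Mice of both sexes, 6 months to 1.5 years old, served in the work as a whole, with no age given per library. The WT libraries carry no treatment in their labels, which do not say whether these cells came from dosed or transplanted mice. The treated samples are described as mice, but no source used here says outright that every library, WT included, is 1 animal and not a pool, so p-values measure the spread between these libraries, which may be technical. Comparisons share the vehicle or the WT libraries and are not independent of each other.

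The promoter windows of the pathway are shown first, because its genes are known to share regulatory elements. RefSeq windows (build GRCm38.p6), from 250 bases before to 50 after the annotated start, were found for 9 of the 10 genes. The windows of both classical heavy chains, of B2m and of Tap1 are printed 5′ to 3′ on the gene's own strand. Capitals mark matches, on either strand, to the NF-kB site GGGGANTNCCC, the interferon-stimulated response element core GAAANNGAAA, the gamma-activated site TTCNNNGAA, the X2 box core TGACG and the CCAAT box. H2-K1 is at chr17:34000298-34000597 (minus strand), H2-D1 at chr17:35262844-35263143 (plus), B2m at chr2:122147437-122147736 (plus) and Tap1 at chr17:34187306-34187605 (plus).
H2-K1: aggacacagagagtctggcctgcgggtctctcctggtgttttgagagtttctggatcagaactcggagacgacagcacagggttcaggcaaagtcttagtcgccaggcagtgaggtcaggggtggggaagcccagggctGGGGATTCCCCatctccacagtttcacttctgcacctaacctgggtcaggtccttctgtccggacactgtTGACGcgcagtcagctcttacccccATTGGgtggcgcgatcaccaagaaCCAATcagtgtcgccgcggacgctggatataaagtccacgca
H2-D1: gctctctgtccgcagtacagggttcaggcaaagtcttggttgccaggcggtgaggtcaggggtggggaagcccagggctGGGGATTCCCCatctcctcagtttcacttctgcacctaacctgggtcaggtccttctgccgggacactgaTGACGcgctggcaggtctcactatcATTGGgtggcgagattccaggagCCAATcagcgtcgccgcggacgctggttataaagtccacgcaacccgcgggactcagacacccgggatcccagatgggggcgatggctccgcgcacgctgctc
B2m: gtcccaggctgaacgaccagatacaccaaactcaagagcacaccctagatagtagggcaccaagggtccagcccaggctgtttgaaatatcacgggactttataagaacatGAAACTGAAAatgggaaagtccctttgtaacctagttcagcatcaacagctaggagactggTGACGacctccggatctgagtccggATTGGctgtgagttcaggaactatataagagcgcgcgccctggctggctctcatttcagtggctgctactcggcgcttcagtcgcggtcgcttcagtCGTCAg
Tap1: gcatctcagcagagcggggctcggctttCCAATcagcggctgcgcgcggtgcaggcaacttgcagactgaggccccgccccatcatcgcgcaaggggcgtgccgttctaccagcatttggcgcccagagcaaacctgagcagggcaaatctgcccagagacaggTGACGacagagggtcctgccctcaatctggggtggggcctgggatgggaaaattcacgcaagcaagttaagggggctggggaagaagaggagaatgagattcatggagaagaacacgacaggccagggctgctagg
The NF-kB letters were present in the windows of H2-K1, H2-D1 and H2-Q4, and in 0.295% of the 32851 RefSeq windows of that length. The letters of the interferon-stimulated core were present in B2m and H2-T23 and in 3.44% of all windows. Those of the gamma-activated site were present in Psmb8 and in 8.3% of all windows. TGACG was found in 6 of the 9 windows (20.8% of all) and CCAAT in 8 of the 9 (37.4% of all). The Tap1 window and that of Psmb9, on the other strand, shared 275 of 300 bases, so both genes are read outwards from one stretch of DNA. Their TGACG and CCAAT matches are the same sites, counted once for each gene, so the 9 windows are not all separate. A match is a description of letters and not a site of binding. No mismatch was allowed, so a window without a match, such as that of H2-K1 or H2-D1 for the interferon-stimulated core, may still hold a variant of the element.

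The libraries held between 18836625 and 32174287 counts in all. The LSK marker Ly6a (Sca-1) ranged from 13.1 CPM in 1 vehicle library to 166 CPM in another. The markers Kit (739.8 to 1552 CPM) and Cd34 (665 to 1108 CPM) were present in all 15 libraries. The 7 LSK markers followed summed to 3763 to 4113 CPM in WT and 1981 to 3069 in vehicle. They summed to 2141 to 2365 CPM in AG221, 2532 to 3035 in ruxolitinib and 2352 to 3319 in combined treatment. Against WT, 2 of the 7 were called lower in vehicle, 5 in AG221, 2 in ruxolitinib and 0 in combined treatment. The shares of tested genes called lower were 17.9%, 28.5%, 16.2% and 1.61%. Markers of other cells moved with the groups, and in such bulk samples fewer cells of a type and less RNA per cell cannot be told apart. The 5 plasma cell markers summed to 594 to 1274 CPM in WT, against 34.9 to 217 CPM in the mutant groups. The 5 neutrophil markers summed to 74.0 to 123 CPM in WT, 70.8 to 205 in vehicle, 421 to 636 in AG221, 128 to 678 in ruxolitinib and 33.7 to 160.5 in combined treatment. The 4 erythroid markers summed to 45.5 to 76.4 CPM in WT and 98.6 to 246 CPM in the mutant groups, except for ruxolitinib A16 at 933 CPM. In AG221 and in ruxolitinib 3 of the 4 were called higher than in WT, against 22.2% and 16.1% of tested genes. The 6 T and NK cell markers summed to 157 to 222 CPM in WT, 410 to 458 in vehicle, 600.5 to 763 in AG221, 427 to 531 in ruxolitinib and 365 to 404 in combined treatment. In each mutant group 1 of the 6 was called higher than in WT, against 15.4%, 22.2%, 16.1% and 1.63% of tested genes in that order. The sums do not stand for all 6. Only 1 of the 6 had a positive value against WT in vehicle and in combined treatment (medians -0.72 and -1.64). In AG221 and in ruxolitinib 3 of the 6 did (median -0.13 in each). The part of these cells in the results was not tested. The WT libraries also differed from the others in sex, with Xist at 455 to 511 CPM against at most 19.5, and Ddx3y at no more than 0.101 CPM against at least 124. Genotype and sex cannot be told apart in any comparison with WT. All vehicle, AG221 and ruxolitinib libraries have names with the letter A, and all combined and WT libraries names with the letter B, whose meaning was not given. The letter and the groups cannot be told apart in vehicle, AG221 or ruxolitinib against WT, in combined treatment against vehicle, AG221 or ruxolitinib, or in the interaction of the drugs. AG221 or ruxolitinib against vehicle, and combined treatment against WT, are comparisons within a letter.

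A group of 3 libraries stood apart in base composition and in transcript length, namely A8 and A10 of AG221 and A16 of ruxolitinib. In the fifth of tested genes with the highest GC content, the median log2 difference from WT was -0.92, -0.71 and -0.45 in them, and between -0.29 and 0.19 in the other 12 libraries. In the fifth with the longest transcripts, the median was -0.72 in A8, -0.72 in A10 and -0.55 in A16. It was no lower than -0.435 in the other 12 libraries. Transcripts of the 10 genes ranged in GC content from 41.2% (B2m) to 57.1% (Tapbp), and the median over tested genes was 49%. They ranged in length from 860 bases (B2m) to 3911 bases (Tap1), so B2m is the lowest of the 10 in both. For some of the members named in comparisons with AG221, the values without these 3 libraries are given too. AG221 is then a single library, A9, assumed to vary like the other groups.

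Across groups the order of the levels per length was stable at its top and bottom. B2m was the highest, with group means of 2781 to 4895 RPKM (CPM divided by kilobases of merged exon), followed by H2-D1 (462 to 955 RPKM) and H2-K1 (545 to 886 RPKM), whose order relative to each other changed between groups. H2-T23 (79.1 to 112 RPKM) and Tapbp (75.7 to 111 RPKM) came next, except that in AG221 Tapbp lay below Psmb8 and Psmb9. Tap1 (39.6 to 76.1), Tap2 (55.9 to 62.3), Psmb8 (51.2 to 77.6) and Psmb9 (48.7 to 85.7 RPKM) lay within 1 overlapping range, and H2-Q4 was lowest at 4.08 to 6.37 RPKM. Heavy chain values carry a limit of their own: 9.63% of the possible 50-base stretches of H2-K1, 12.8% of H2-D1, 14.5% of H2-T23 and 36.4% of H2-Q4 also occur in another gene, whereas none of B2m does. All are on chromosome 17 in the MHC, except B2m on chromosome 2 (122147686 to 122153083, plus strand, GRCm38).

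**Figure D1:**
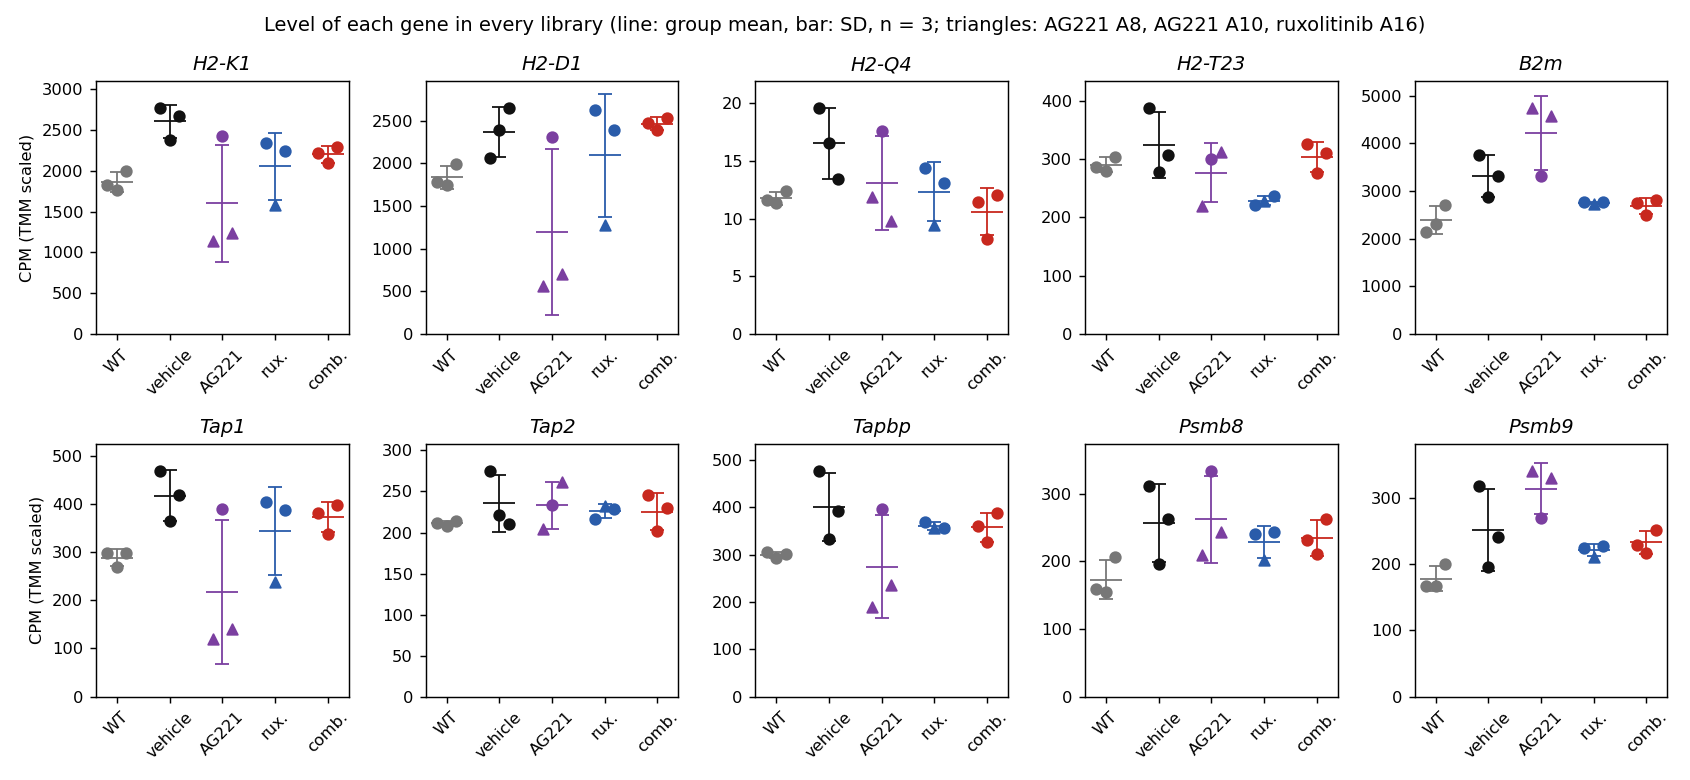
Each panel plots the level of 1 gene in CPM (counts scaled by TMM to a common library total) in the 15 libraries, by group, with the group mean (line) and SD (bar), n = 3. Triangles mark AG221 A8, AG221 A10 and ruxolitinib A16, in which H2-D1 lay at 559, 700.5 and 1273 CPM, below every other library, while B2m did not fall below WT.

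Vehicle against WT asks what the combined mutations change in LSK cells. Every one of the 10 genes had a higher fitted level in vehicle, under TMM, RLE and upper quartile scaling alike, and 3 of them rose past the threshold (B2m, Psmb8 and Psmb9). Of all tested genes, 15.4% were called higher (adjusted p under 0.05, in the quasi-likelihood test of edgeR, adjusted by Benjamini and Hochberg), in a split of 2747 higher and 3190 lower that upper quartile scaling turned into 1306 and 3586. The median log2 fold change was 0.48 over the 10 genes and -0.09 over all tested genes.

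B2m, the light chain, stood at 2150, 2319 and 2706 CPM in WT and at 3764, 2875 and 3317 CPM in vehicle. All vehicle libraries were above all WT libraries, a log2 fold change of 0.47 ± 0.15 (SE, adjusted p = 0.0272). Psmb9 was at 167, 167 and 199.9 CPM in WT and 317, 195 and 241 CPM in vehicle. Its groups overlapped, since vehicle A3 lay below WT B31, and the log2 fold change was 0.50 ± 0.16 (adjusted p = 0.0332). Psmb8 was at 159, 154 and 207 CPM in WT and 312, 196 and 263 CPM in vehicle, overlapping in the same pair of libraries (0.57 ± 0.20, adjusted p = 0.0441).

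The classical heavy chain H2-K1 stood at 1824, 1761 and 1994 CPM in WT and 2767, 2375 and 2670 CPM in vehicle. H2-D1 stood at 1775, 1745 and 1988 CPM in WT and 2059, 2389 and 2645 CPM in vehicle. Neither overlapped between the groups, yet neither was called (0.49 ± 0.24, adjusted p = 0.124, and 0.36 ± 0.41, adjusted p = 0.505) in the single fit, which estimates the spread over all 5 groups. Fitted on vehicle and WT alone, H2-K1 (adjusted p = 0.0237) and Tap1 (0.0221) were called, with 38.6% of the genes tested there, and the other 3 were not (B2m 0.052, Psmb8 0.0621, Psmb9 0.0845). H2-Q4 was at 11.6, 11.3 and 12.4 CPM in WT and 19.6, 16.5 and 13.5 CPM in vehicle (0.49 ± 0.25, adjusted p = 0.138). H2-T23 was at 287, 279.5 and 304 CPM in WT and 388, 279 and 307 CPM in vehicle, and the groups overlapped (0.16 ± 0.15, adjusted p = 0.419).

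Of the transporter, Tap1 stood at 298, 268 and 299 CPM in WT and 468, 363 and 418.5 CPM in vehicle, without overlap (0.53 ± 0.34, adjusted p = 0.24). Tap2 stood at 212, 208 and 214 CPM in WT and 275, 221 and 210.5 CPM in vehicle, where A4 fell inside the WT range (0.16 ± 0.13, adjusted p = 0.365). Tapbp stood at 305, 293 and 301 CPM in WT and 477, 333 and 393 CPM in vehicle, without overlap (0.42 ± 0.21, adjusted p = 0.14). In all, 6 of the 10 genes lay above WT in every vehicle library (H2-K1, H2-D1, H2-Q4, B2m, Tap1 and Tapbp), against 25.6% of all tested genes. Vehicle A1 was the highest of its group for 9 of the 10 genes, all but H2-D1.

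The 3 calls depended on single libraries. No member was called without vehicle A1, vehicle A4, WT B28 or WT B30, while the same 3 were called without vehicle A3 or WT B31. None was called under upper quartile scaling or with a minimum of 10 counts in every library either, and with an offset for GC content, chosen after seeing the data, Psmb8 was not called (adjusted p = 0.0512) while B2m and Psmb9 were.

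**Figure D2:**
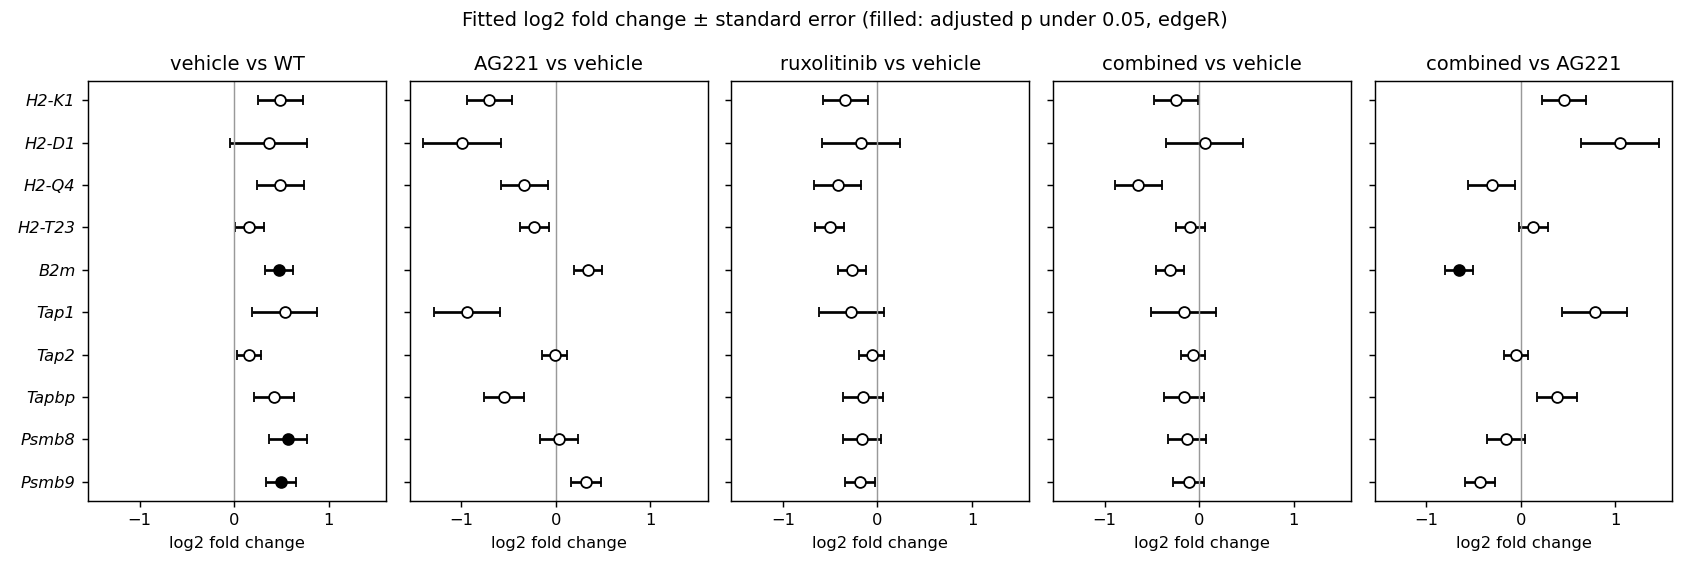
Fitted log2 fold change (horizontal axis) ± SE of each of the 10 genes in 5 comparisons. Filled points have an adjusted p under 0.05: B2m, Psmb8 and Psmb9 in vehicle vs WT, and B2m in combined vs AG221; the remaining points are open.

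AG221 against vehicle asks what the inhibitor of mutant IDH2 changes. None of the 10 genes was called, against 0.987% of all tested genes (176 called, and 4498 at an unadjusted p under 0.05, of which 5 were members). The group was not uniform. H2-D1 was at 559 CPM in A8, 2311 in A9 and 700.5 in A10, and H2-K1 at 1134, 2431 and 1236 CPM in the same order. Tap1 was at 120.5, 389.8 and 141 CPM, and Tapbp at 190.4, 397 and 236 CPM. For these 4 genes A9 lay near the vehicle libraries, and A8 and A10 lay below every vehicle and every WT library. B2m, in contrast, was at 4740 and 4569 CPM in A8 and A10, above all vehicle libraries, and at 3319 CPM in A9, and Psmb9 was at 341, 269.9 and 330.4 CPM.

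The fitted log2 fold changes against vehicle were -0.99 ± 0.41 for H2-D1 (adjusted p = 0.161), -0.94 ± 0.35 for Tap1 (0.125), -0.70 ± 0.24 for H2-K1 (0.106) and -0.55 ± 0.21 for Tapbp (0.142). For B2m the value was 0.34 ± 0.15 (adjusted p = 0.169) and for Psmb9 0.32 ± 0.16 (0.233). Psmb8 (209, 334 and 244 CPM) and Tap2 (204, 234 and 262 CPM) overlapped with vehicle, as did H2-T23 (219, 299.9 and 312 CPM) and H2-Q4 (11.9, 17.6 and 9.82 CPM). The median log2 fold change over the 10 genes was -0.28, and over all tested genes -0.01. Without A8, A10 and A16 the values were close to 0, at -0.0547 for H2-D1, -0.12 for Tap1, -0.12 for H2-K1, -0.0312 for Tapbp, -0.0183 for B2m and 0.0864 for Psmb9, with a median of -0.0302 over the 10 genes. Leaving out A9 instead raised the number of called members to 5 (H2-K1, H2-D1, Tap1 and Tapbp lower, B2m higher) and the share of all tested genes called to 24.4%. With A8 or A10 left out no member was called.

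The ratio of B2m to the sum of H2-K1 and H2-D1, in RPKM, also set A8 and A10 apart. It was 9.14 in A8 and 7.68 in A10, against 2.24 in A9 and 1.91 to 2.17 in WT. In vehicle it was 1.93 to 2.52, in combined treatment 1.77 to 1.87, and in ruxolitinib 1.78 in A14, 3.07 in A16 and 1.90 in A17. The 3 highest ratios were thus in the 3 libraries with the lowest levels of GC-rich genes and of genes with long transcripts. The part of GC content or of transcript length in the ratio was not tested. Psmb9 (54.1% GC) was above every WT library in A8 and A10, and Tap2 (56.9%) was at 204 and 262 CPM there, close to or above WT, while Tap1 (55.8%) and H2-K1 (54.3%) were below WT. With the GC offset in the fit, the log2 fold change against vehicle was -0.96 for H2-D1, -0.91 for Tap1, -0.71 for H2-K1, -0.40 for Tapbp and 0.24 for B2m. That offset made no adjustment for transcript length.

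**Figure D3:**
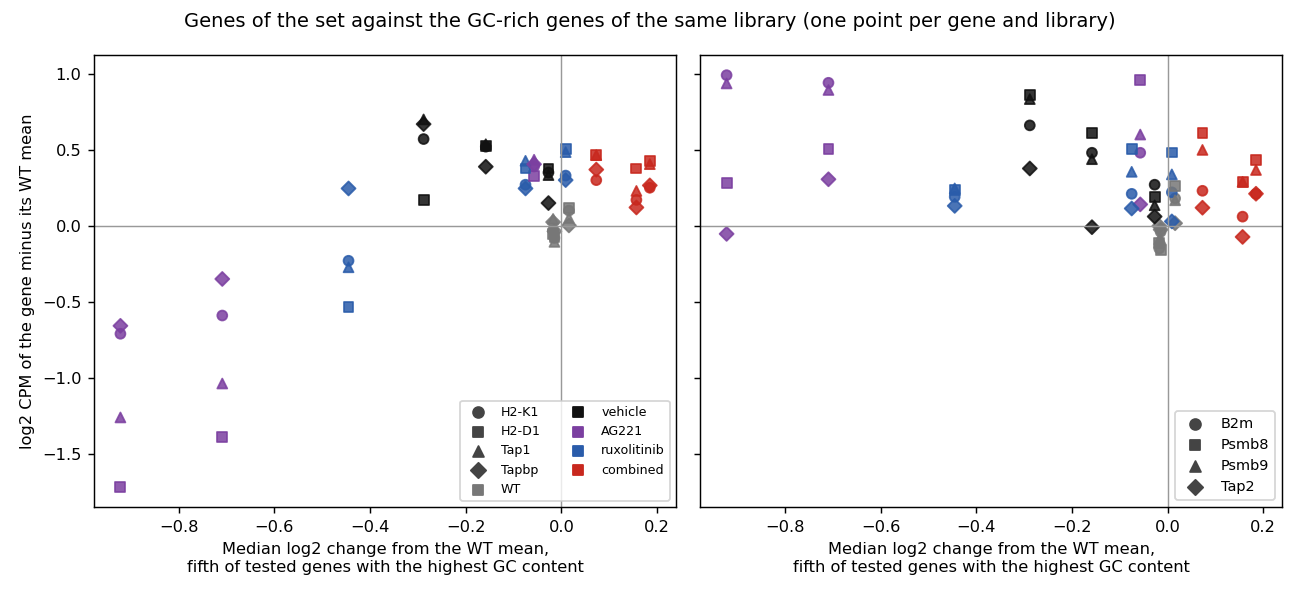
Each point is 1 gene in 1 library. The horizontal axis gives the median log2 change from WT of the fifth of tested genes richest in GC, and the vertical axis the log2 CPM of the gene minus its WT mean, with colours for groups and shapes for genes. On the left, H2-K1, H2-D1, Tap1 and Tapbp lie below WT in AG221 A8 and A10 (horizontal positions -0.92 and -0.71), and on the right B2m and Psmb9 lie above WT there.

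Against WT, AG221 carried 3 called members, B2m (0.82 ± 0.15, adjusted p = 0.00103), Psmb9 (0.82 ± 0.16, adjusted p = 0.00179) and Psmb8 (0.60 ± 0.20, adjusted p = 0.025), all higher, against 22.2% of all tested genes. Every AG221 library lay above every WT library for these 3 genes, as for 25.3% of tested genes. The heavy chains H2-D1 (-0.63 ± 0.41) and H2-K1 (-0.22 ± 0.24) were not called, nor was Tap1 (-0.41 ± 0.34). With A8, A10 and ruxolitinib A16 left out, Psmb8 was the 1 member still called in AG221 against WT, from the lone library A9, with 9.53% of tested genes called. H2-D1, H2-K1 and Tap1 then had the opposite sign, at 0.32, 0.38 and 0.43. All 10 members then had positive values, with a median of 0.41. Without A9, 6 members were called (B2m and Psmb9 higher, H2-K1, H2-D1, Tap1 and Tapbp lower), and so were 56.4% of all tested genes. Neutrophil markers were also higher in AG221 than in WT, 4 of 5 called, and their part in the result was not tested.

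Ruxolitinib against vehicle asks what JAK inhibition changes. All 10 fitted values were negative, from -0.50 (H2-T23) to -0.06 (Tap2), with a median of -0.23 against 0.01 over all tested genes, and the sign held under RLE and upper quartile scaling. Without vehicle A1, Tap2 and Psmb9 turned positive, and without ruxolitinib A16, H2-D1 did. None was called in this comparison, in which 3 genes in all were called (0.0168% of those tested, and 813 at an unadjusted p under 0.05, of which 1 was a member). H2-T23 was at 221, 228 and 237 CPM in ruxolitinib and at 388, 279 and 307 CPM in vehicle, a log2 fold change of -0.50 ± 0.15 (adjusted p = 0.739). All its ruxolitinib libraries were below all vehicle libraries, and its SD within ruxolitinib was 7.95 CPM, against 56.6 CPM in vehicle. B2m was at 2775, 2726 and 2760 CPM (-0.27 ± 0.15) and H2-K1 at 2339, 1583 and 2246 CPM (-0.34 ± 0.24), also below every vehicle library. These 3 of 10 members compare with 4.5% of tested genes for which all ruxolitinib libraries were lower.

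H2-D1 stood at 2619, 1273 and 2392 CPM in A14, A16 and A17, and Tap1 at 404, 239 and 388 CPM. For both A16 was far below the other two, which lay within or near the vehicle range. Tap2 (216, 232 and 229 CPM), Tapbp (369.7, 356 and 356), Psmb8 (240.3, 202 and 244), Psmb9 (225, 211 and 228) and H2-Q4 (14.4, 9.49 and 13.1 CPM) overlapped with vehicle.

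Against WT, no member was called in ruxolitinib, while 32.3% of tested genes were called. Every ruxolitinib library was above every WT library for 4 members (B2m, Tap2, Tapbp and Psmb9), against 25.4% of tested genes, and below for H2-T23, against 32.8%. The value for H2-T23 was -0.34 ± 0.15 (adjusted p = 0.0914). It was called lower with a minimum of 10 counts in every library (adjusted p = 0.0339), in a fit of these 2 groups alone (0.0401) and with the GC offset (0.0334). Without A8, A10 and A16, H2-D1 and Tap1 were called higher in ruxolitinib than in WT, along with 17.7% of tested genes called in either direction.

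Combined treatment asks whether both drugs together move the pathway. Against vehicle, none of the 10 genes was called, while 12.5% of tested genes were (4.21% lower). H2-K1 was at 2216, 2091 and 2291 CPM, B2m at 2752, 2494 and 2807 CPM and H2-Q4 at 11.5, 8.26 and 12.0 CPM. These 3 lay below every vehicle library, against 15.2% of tested genes, with log2 fold changes of -0.24 ± 0.24, -0.31 ± 0.15 and -0.64 ± 0.25 (adjusted p = 0.565, 0.203 and 0.113). H2-D1, at 2474, 2385 and 2531 CPM, was the 1 member with a positive value (0.06 ± 0.41), which changed sign under upper quartile scaling and without vehicle A1. Without vehicle A1, H2-T23, Tap2, Psmb8 and Psmb9 turned positive instead. The others overlapped with vehicle, namely H2-T23 (327, 276 and 309.9 CPM), Tap1 (382, 338 and 398), Tap2 (245, 201 and 230.1), Tapbp (361, 326 and 388), Psmb8 (232, 210.3 and 262) and Psmb9 (229.5, 217 and 251.5 CPM).

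Against WT, no member was called in combined treatment, and 3.25% of tested genes were. The fitted values ran from -0.16 for H2-Q4 to 0.44 for Psmb8 (adjusted p = 0.191), with a median of 0.25 against 0.04 over all genes. For 6 members (H2-K1, H2-D1, Tap1, Tapbp, Psmb8 and Psmb9) every combined library was above every WT library, against 22.3% of tested genes. The number of members with a positive value was 9, and 6 under upper quartile scaling, and a p above the threshold does not show that the levels were equal.

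Combined treatment against AG221 gave 1 called member. B2m fell by 0.65 on the log2 scale (SE 0.15, adjusted p = 0.00634), and 14.3% of tested genes were called lower. All combined libraries were below all AG221 libraries for B2m and for Psmb9 (-0.43 ± 0.16, adjusted p = 0.0557), and above them for H2-D1 (1.05 ± 0.41, adjusted p = 0.0653). Over all tested genes 20.3% lay below and 24.3% above in this way. Psmb9 was called lower under DESeq2 (0.0333), RLE (0.0408), upper quartile scaling (0.0105), the higher count minimum (0.0264) and the GC offset (0.0497), but not without a filter on low counts (0.104) or in the compared groups alone (0.0728). H2-D1 was called higher under DESeq2 (0.0417) and without a filter (0.03). Without A8, A10 and A16 no member was called, with B2m at -0.32 (adjusted p = 0.419), Psmb9 at -0.23 and H2-D1 at 0.0773. Without A9, 6 were called (B2m and Psmb9 lower, H2-K1, H2-D1, Tap1 and Tapbp higher), and so were 42.6% of tested genes.

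Combined treatment against ruxolitinib gave no called member, against 12.4% of tested genes. H2-T23 was the 1 member without overlap, higher in combined treatment in all libraries, as were 19.9% of tested genes (0.41 ± 0.15, adjusted p = 0.0971). The test of whether ruxolitinib acted differently in the presence of AG221 than without it (the interaction) called no member and 8.42% of tested genes. The largest member values were 1.22 ± 0.58 for H2-D1, 1.06 ± 0.49 for Tap1, 0.80 ± 0.34 for H2-K1 and 0.64 ± 0.21 for H2-T23 (adjusted p = 0.163, 0.152, 0.122 and 0.0686). Without A9, 6 were called, namely H2-K1, H2-D1, H2-T23, Tap1 and Tapbp with positive and B2m with negative values, and so were 31.8% of tested genes. Without A8, A10 and A16 none was, and the values were 0.0028 for H2-D1, 0.0018 for Tap1, 0.0318 for H2-K1 and 0.52 for H2-T23.

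Genes that work beside the 10 were followed as lists. Of 8 genes for peptide loading and editing, 4 were called higher in vehicle than in WT, against 15.4% of tested genes. All 8 had positive values, with a median of 0.49. Calreticulin (Calr), a chaperone of the loading complex, rose by 1.41 ± 0.19 on the log2 scale, from 1030, 819 and 1064 CPM in WT to 2615, 1990 and 3129 CPM in vehicle. Calnexin (Canx, 0.76), the peptide-trimming Erap1 (0.69) and the tapasin relative Tapbpl (0.53) rose as well. In combined treatment 4 of the 8 fell against vehicle, Erap1 (-0.85), Lnpep (-0.72), Calr (-0.65) and Canx (-0.61), against 4.21% of tested genes called lower. Calr, at 1355, 1550 and 2020 CPM there, was still above every WT library (0.76 ± 0.18, adjusted p = 0.0424), a call that was lost under RLE and upper quartile scaling and with a minimum of 10 counts in every library.

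Of the 4 immunoproteasome partners, 3 were called higher in vehicle than in WT, against 15.4% of tested genes. They were Psme2 (PA28 beta, 0.71), Psmb10 (the remaining inducible catalytic subunit, 0.57) and the assembly factor Pomp (0.50). The 3 constitutive counterparts of Psmb8, Psmb9 and Psmb10 rose alongside, Psmb7 by 0.75 and Psmb5 and Psmb6 by 0.53 each, so that all 3 of 3 were called. With each library left out, values in vehicle against WT ran from 0.558 to 0.913 for Psme2 and 0.399 to 0.741 for Psmb10. Calls on such genes also rest on single libraries. Among all followed values, members and other comparisons included, 15 lost their call without vehicle A1 and 15 without WT B30. In AG221 against WT all 4 partners were called higher, with a median of 1.09, and so were all 3 counterparts, with a median of 1.13. Of all tested genes 22.2% were called higher there. Psme2 reached 1.36 and Psmb10 1.07. Combined treatment was lower than AG221 for all 4 partners (median -0.75) and all 3 counterparts (median -0.61), against 14.3% of tested genes called lower. With A8, A10 and A16 left out, Psmb10 (-0.71, adjusted p = 0.141) and Psme2 (-0.61, adjusted p = 0.248) were no longer called in that last comparison, nor was any of the other partners or counterparts (medians -0.54 and -0.48). Against WT, the medians in AG221 were then 0.90 for the partners and 0.95 for the counterparts.

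Among 11 tested further class I heavy chains, H2-Q7 (0.64), H2-Q6 (0.61) and H2-T22 (0.58) were higher in vehicle than in WT, and H2-Q1 (-3.29) and H2-T3 (-2.87) were lower. Of all tested genes 15.4% were called higher there and 17.9% lower. Both lower genes had very few counts, H2-Q1 with 3 to 6 and H2-T3 with 0 to 11 per vehicle library. Their means in WT were also low, at 1.59 and 1.02 CPM. Of the 50-base stretches of the 3 higher genes 26.5% (H2-Q7), 35% (H2-Q6) and 53.5% (H2-T22) occur in another gene, so their counts are uncertain. In AG221 against WT 3 of the 11 were called higher and 2 lower, against 22.2% and 28.5% of tested genes. In ruxolitinib against WT 1 was called lower (16.2% of tested genes), and in combined treatment 0 were called (3.25%). None of the 11 was called in any treated group against vehicle. Of tested genes 0.987% were called there in AG221, 0.0168% in ruxolitinib and 12.5% in combined treatment. None of 10 MHC class II genes was called in vehicle against WT (33.3% of tested genes were), nor in any treated group against vehicle, with the same shares. Against WT, 2 of the 10 were called higher and 1 lower in AG221, against 22.2% and 28.5% of tested genes. In ruxolitinib 1 was called lower than in WT (16.2% of tested genes), and in combined treatment 0 were called (3.25%).

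**Figure D4:**
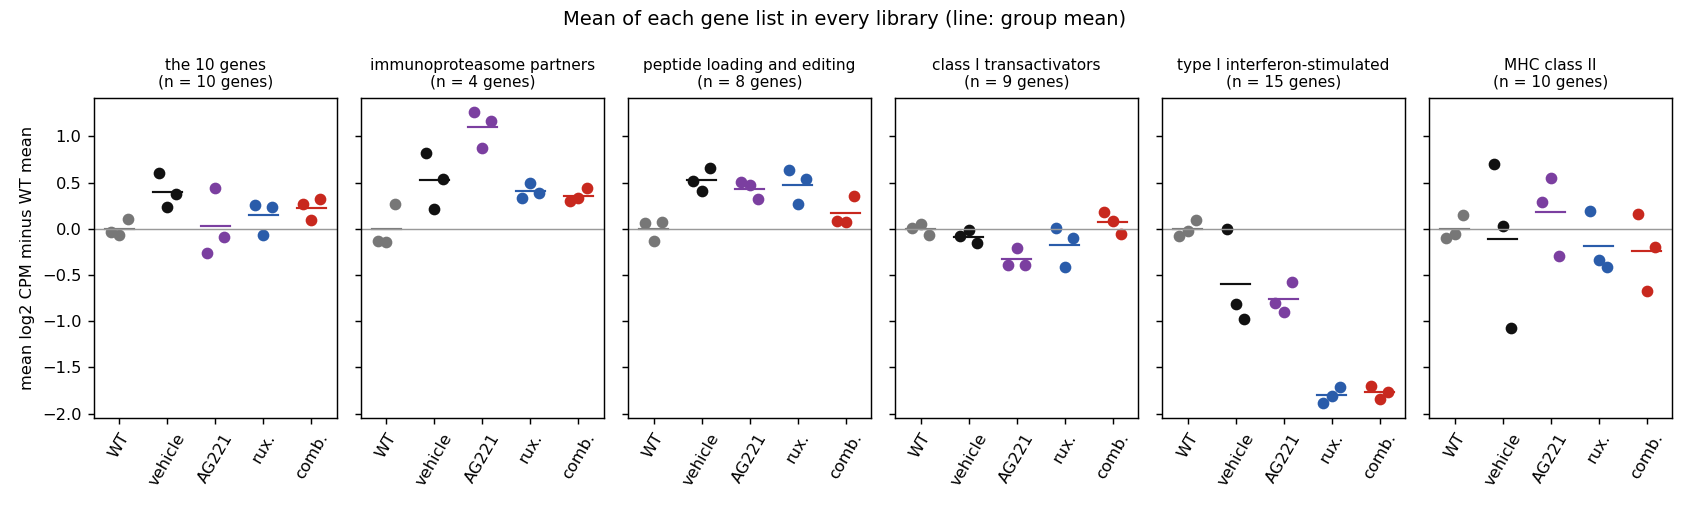
The mean log2 CPM of each gene list minus its WT mean (vertical axis) in every library by group, with the group mean as a line. The 15 type I interferon-stimulated genes lie between -1.89 and -1.70 in all ruxolitinib and combined libraries, while the 10 class I pathway genes stay between -0.26 and 0.60 in all libraries.

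Nlrc5, the class I coactivator, was at 106, 89.1 and 104 CPM in WT and at 274, 162 and 169.9 CPM in vehicle, without overlap (1.02 ± 0.22, adjusted p = 0.00675). In combined treatment it was at 77.3, 58.9 and 85.8 CPM, below every other library, and fell by 1.45 against vehicle. In ruxolitinib it was at 125, 116 and 114 CPM (-0.77, not called). Rfxap, a subunit of the RFX complex that binds the same promoters, was lower in vehicle (-2.32) and higher in combined treatment than in vehicle (3.25). Its values were low, at 1.62 to 3.91 CPM in vehicle, and WT ranged from 8.92 to 23.2 CPM. Irf1 was not called in any of the comparisons of treatment or genotype with vehicle or WT. Nlrc5, Rfxap and Irf1 belong to a list of 9 regulators. In vehicle against WT 2 of the 9 were called higher and 1 lower, against 15.4% and 17.9% of tested genes. In combined treatment against vehicle 1 was called higher and 2 lower, against 8.28% and 4.21%. The means of Rfx5, also listed, were 37.65 CPM in WT, 26.26 in vehicle and 34.99 in combined treatment. Those of Rfxank were 14.45, 16.03 and 16.72 CPM.

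Vehicle A1 was the highest library for Nlrc5, as it was of its group for 9 of the class I genes. The interferon-gamma receptor chain Ifngr1 rose by 0.84 in vehicle against WT, from 206 to 250.4 CPM in WT to 331 to 445 CPM in vehicle, without overlap. The other chain, Ifngr2, went the other way, at 27.29 to 34.65 CPM in WT and 10.64 to 21.55 CPM in vehicle. The mean of Jak1 was 508.8 CPM in WT and 303.7 CPM in vehicle. Of 10 interferon receptor and JAK-STAT genes, 4 had a positive value there, with a median of -0.12. Of these 10, 2 were called higher and 1 lower, against 15.4% and 17.9% of tested genes.

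The 15 type I interferon-stimulated genes are given beside the class I genes. Against vehicle, Irf7 (-1.84) and Rtp4 (-2.31) fell in ruxolitinib, with 0.0168% of tested genes called lower. In combined treatment 12 of the 15 fell, among them Mx1 (-2.02), Rtp4 (-1.89) and Irf7 (-1.42), with 4.21% of tested genes called lower. Without A8, A10 and A16 none of the 15 was called in ruxolitinib against vehicle, with a median of -1.24 against -1.25 with them. Against WT, 14 of 15 were lower in ruxolitinib (13 without those libraries), against 16.2% of tested genes called lower. In combined treatment 11 of 15 were, against 1.61%. In the same comparisons 0 class I members were called. Mx1 is also the gene whose promoter drives the Cre of the mutant cells. In vehicle against WT 4 of the 15 were lower (17.9% of tested genes were) and none was higher, although all 10 class I genes had positive values there.

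**Figure D5:**
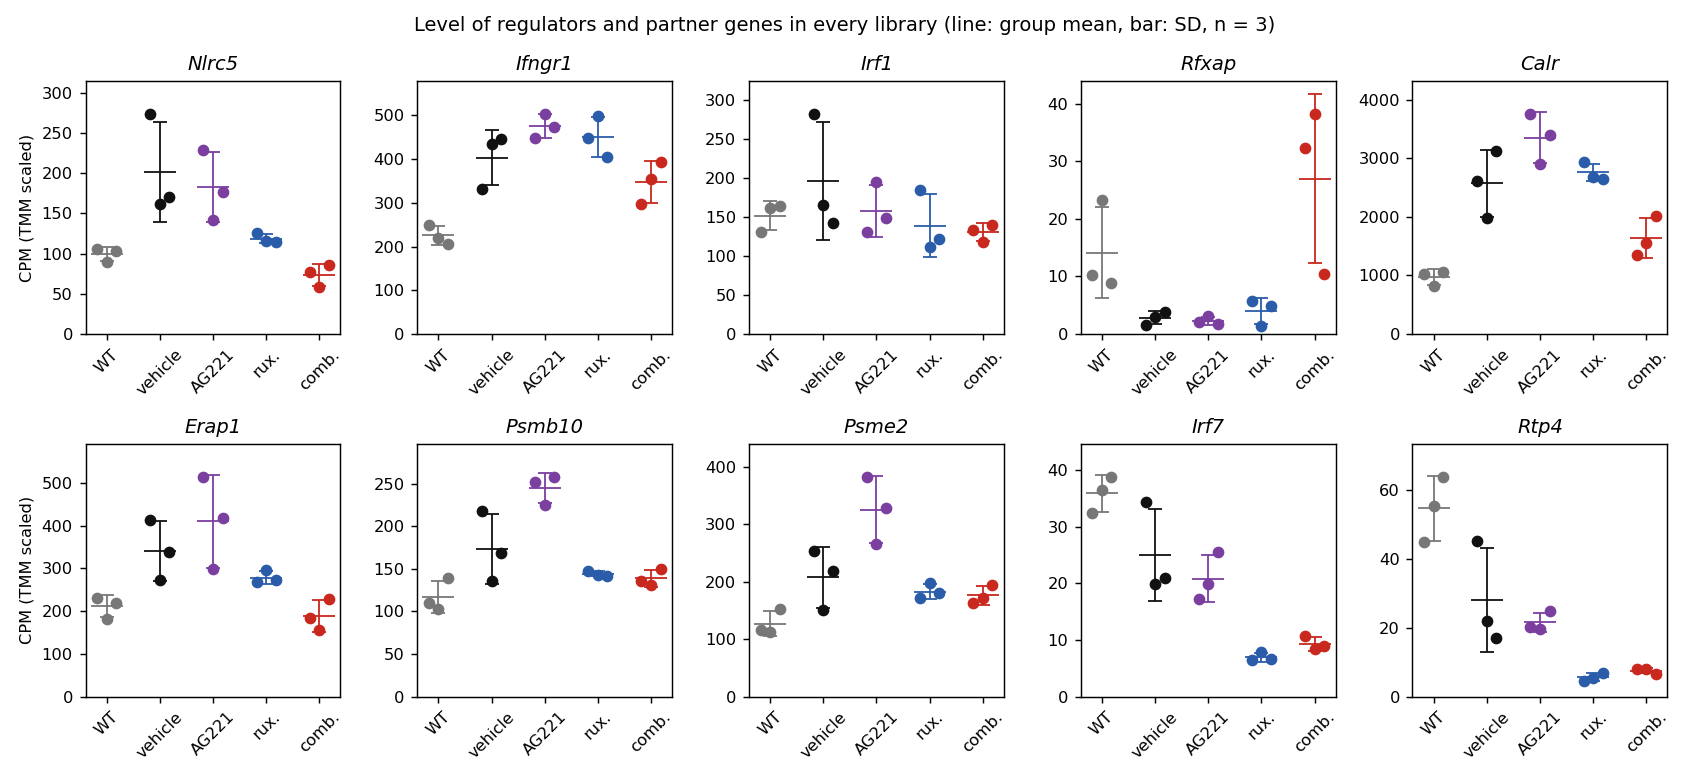
Level in CPM (vertical axis) of 10 regulators and partner genes in every library by group, with the group mean (line) and SD (bar), n = 3. Nlrc5 is lowest in combined treatment (58.9 to 85.8 CPM), while Irf7 and Rtp4 are low in both ruxolitinib and combined treatment.

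Among themselves, some of the 10 genes moved closely together over the 15 libraries and others did not. Pearson's r of the log2 CPM was 0.98 for H2-K1 and Tap1, 0.97 for H2-D1 and Tap1, 0.93 for H2-K1 and H2-D1 and 0.92 for Tap1 and Tapbp. B2m and Psmb9 were alike (r = 0.93), and B2m ran against H2-D1 (r = -0.64) and Tap1 (r = -0.51). The 2 genes that share a promoter stretch, Tap1 and Psmb9, had r = -0.33. The points share libraries that differ in GC content and in the levels of long transcripts, and A8, A10 and A16 hold the lowest levels of H2-D1 and Tap1. Tap2 and H2-T23 followed neither set closely (r with Tap1 of 0.11 and 0.37, and with B2m of 0.41 and 0.0833). The genes most like the mean of the 10, by r over 15 libraries, were Vim (0.93), Rhbdf2 (0.90), Atxn10 (0.89), Il3ra (0.89) and Kdelr1 (0.89). That mean does not stand for each of the 10. Its r was 0.915 with H2-K1 and 0.864 with Tap1, but 0.151 with Psmb9 and -0.0235 with B2m.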

How the data were processed

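RNA of sorted CD45.2+ LSK cells was amplified with SMARTer chemistry and read as paired ends. The authors aligned reads to mm10 with STAR 2.5.1a and deposited raw counts per Ensembl gene, with the annotation release and strand setting not given in the sources used here. Reads of overlapping genes on opposite strands may therefore mix, which concerns Tapbp (24.9% of exon bases), H2-Q4 (19.1%), Tap2 (18.5%), Psmb8 (14.7%), Psmb9 (5.79%) and Tap1 (3.87%). The authors also deposited a table of normalized counts from DESeq2 1.6.3, a signal equal to the counts divided by 1 size factor per library, which was checked and not used further.

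Groups came from the labels. Symbols and lengths came from GENCODE mouse release 21, which matched 44585 of 45232 IDs. All 15 libraries entered a single edgeR 4.0.16 quasi-likelihood fit (R 4.3.3, TMM, filterByExpr by group), with Benjamini-Hochberg adjustment over 17834 genes and calls at 0.05. The test recovered planted changes of 2 on the log2 scale in simulated counts. Those changes were larger than any member value in the main fit, and the simulation held no shift shared by a library. It therefore does not show how well changes of the size seen in the members are found. Log2 CPM used a prior count of 2. A count of 3, a reference level that was not used as a filter, came to 0.0957 to 0.157 CPM. Alternatives were DESeq2 1.42.0, RLE and upper quartile scaling, other count filters, fits of the compared groups alone, each library left out, and, chosen after seeing the data, a GC offset and leaving out 3 libraries.

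The members and the gene lists were chosen with earlier results of these data known. Named genes are the members, genes of those lists and the 5 genes outside them with the highest r with the members' mean. Promoter windows came from RefSeq (GRCm38.p6).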

Additional observations from a re-analysis of the deposited data

Results flagged for a closer look

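The test of whether ruxolitinib acted differently with AG221 than without it passed the threshold for 8 genes of the lists, and for none of the class I members. The log2 values below are the change with ruxolitinib on top of AG221 minus the change with ruxolitinib alone. In the loading and proteasome lists, Calr was at -1.13 ± 0.26 (SE, adjusted p = 0.0349) and Psmb7 at -0.997 ± 0.255 (adjusted p = 0.0397). Among regulators, Rfxap was at 3.09 ± 0.83 (adjusted p = 0.0434) and Jak1 at 1.79 ± 0.48 (adjusted p = 0.0431). Among markers of other cells, Nkg7 was at -1.01 ± 0.21 (adjusted p = 0.0311), S100a8 at -3.08 ± 0.73 (adjusted p = 0.0362), Hba-a1 at -3.99 (adjusted p = 0.0443) and Hbb-bs at -4.35 (adjusted p = 0.0399). Without A8, A10 and A16 the 4 genes that are no cell markers were not called, at -0.94 for Calr, -0.52 for Psmb7, 2.24 for Rfxap and 0.89 for Jak1.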

How the results depend on the processing

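No paired analysis was possible because the library numbers of the labels are not shared between groups. Under DESeq2, AG221 vs vehicle gave 2306 called genes and 1 member (H2-K1 lower), ruxolitinib vs vehicle 50, combined vs WT 1804, combined vs AG221 3 members and the interaction 3632. RLE scaling gave 2 members in combined vs AG221. Upper quartile scaling gave 0 members in vehicle vs WT, 738 genes in AG221 vs vehicle, 2 members in combined vs AG221, 3124 genes in the interaction, a sign change for H2-D1 in combined vs vehicle (-0.0459) and a summed level of 8214 CPM for the 10 genes in combined treatment, against 9086. It moved the median of all genes in AG221 vs vehicle from -0.01 to 0.18 and in combined vs AG221 from 0.11 to -0.18, and the members' median with it (-0.28 to -0.12, and 0.04 to -0.25). The share of calls that were higher went from 47.7% to 77.4% in AG221 vs vehicle, 57% to 38% in combined vs AG221, 50.3% to 15.9% in combined vs WT, 49.8% to 34% in ruxolitinib vs WT and 66.5% to 37.2% in the interaction. No filter beyond 1 count gave 17 genes in ruxolitinib vs vehicle and 2 members in combined vs AG221. A minimum of 10 counts in every library gave 3406 genes and 0 members in vehicle vs WT, 906 genes in AG221 vs vehicle, 1 member in ruxolitinib vs WT, 274 genes in combined vs WT, 2 members in combined vs AG221 and 2485 genes in the interaction. Fits of the compared groups alone gave 0 genes in AG221 vs vehicle and in ruxolitinib vs vehicle, 1 member in ruxolitinib vs WT, 1788 genes in combined vs WT, 3788 in combined vs AG221 and 167 in the interaction. The GC offset gave 2 members in vehicle vs WT, 357 genes in AG221 vs vehicle, 1 member in ruxolitinib vs WT and 2 in combined vs AG221. Leaving out A8, A10 and A16 gave 3 genes in AG221 vs vehicle, 0 in ruxolitinib vs vehicle, 2160 genes and 1 member in AG221 vs WT, 2 members in ruxolitinib vs WT, 109 genes and 0 members in combined vs AG221 and 24 genes in the interaction. Signs then changed for H2-Q4 (0.0775) and B2m (-0.0183) in AG221 vs vehicle, for H2-D1 (0.32), Tap1 (0.43) and H2-K1 (0.38) in AG221 vs WT, for H2-D1 in ruxolitinib vs vehicle (0.0745), and for H2-K1 (-0.16) and Tap1 (-0.0789) in combined vs AG221. The cause of these shifts was not tested.

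Leaving out 1 library at a time gave 1901 to 5907 genes and 0 to 3 members in vehicle vs WT, 0 to 4672 genes and 0 to 5 members in AG221 vs vehicle, and 0 to 9 genes in ruxolitinib vs vehicle. It gave 1006 to 1965 genes in combined vs vehicle, 6479 to 10793 genes and 2 to 6 members in AG221 vs WT, 1910 to 5074 genes in ruxolitinib vs WT and 88 to 415 genes in combined vs WT. It gave 3002 to 8140 genes and 1 to 6 members in combined vs AG221, 1137 to 1899 genes in combined vs ruxolitinib, and 44 to 6087 genes and 0 to 6 members in the interaction. Among the gene values followed, signs changed within the ranges of Tap2 (-0.14 to 0.0621), Psmb9 (-0.34 to 0.0163) and H2-D1 (-0.37 to 0.0841) in ruxolitinib vs vehicle, of H2-D1 (-0.0344 to 0.14), H2-T23 (-0.19 to 0.0514), Tap2 (-0.14 to 0.0602), Psmb8 (-0.29 to 0.02998) and Psmb9 (-0.26 to 0.0895) in combined vs vehicle, and of H2-Q4 in combined vs WT (-0.24 to 0.0132). The number of members with a positive value was 10 throughout in vehicle vs WT, 0 to 2 in ruxolitinib vs vehicle, 1 to 4 in combined vs vehicle and 2 to 9 in combined vs ruxolitinib. Of the followed values of single genes under all alternatives, 1198 kept their sign and their side of the threshold, 143 lost a call, 30 gained one and 19 changed sign. Depth did not limit the members, the lowest of which (H2-Q4) had 220 to 521 counts per library.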
